A study of Mus musculus with 4 samples.

Results

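Genes of the ciliary gate, the protein complexes at the base of the primary cilium, were followed in retinal RNA of mouse embryos. They were taken by symbol from a table of 18471 genes, and are 8 in number: Nphp4 and Rpgrip1l of the nephronophthisis (NPHP) module, Cep290 and its binding partner Iqcb1, the Joubert syndrome genes Ahi1 and Cc2d2a, and Invs and Anks6 of the inversin compartment. All 8 were found and all 8 passed the filter on low counts. The libraries came from retinas of single embryos at embryonic day 19, 2 labelled wild-type and 2 labelled Foxn3KO. The Foxn3KO embryos were homozygous for an engineered deletion of exon 3 of Foxn3, a forkhead transcription factor gene, on C57BL/6NJ. The strain, litter and sex of the wild-type embryos are not given in the labels.

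The ciliary gate, or transition zone, ties the microtubule axoneme to the ciliary membrane and limits which proteins enter or leave the cilium. The NPHP module, the tectonic and Meckel complex and Cep290 are its main building blocks, while the inversin compartment is a segment of the cilium shaft just beyond it. In photoreceptors the gate is drawn out into the connecting cilium, through which all proteins of the light-sensing outer segment pass. Inherited loss of these genes causes nephronophthisis, a cystic kidney disease, Joubert syndrome, a malformation of the midbrain and hindbrain, and in many patients retinal dystrophy.

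Total counts ranged from 22543531 to 29360129 per library. Foxn3 itself was higher in the libraries labelled Foxn3KO (144 and 144 against 97.6 and 99.8 CPM, read counts scaled to library size with TMM factors; edgeR adjusted p = 7.80e-08). Counts per gene do not resolve exon 3, so each direction below rests on the labels. Wild-type replicate 1 differed from the other 3 libraries in its sex-linked transcripts: Xist, the RNA of the inactive X chromosome, had 83073 counts there and 9 to 19 elsewhere. Of the 8 genes, Invs alone changed its call without that library.

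Of the 8 genes, 5 rose in the Foxn3KO libraries and none fell (also 0 at an unadjusted p under 0.05 and 0 in DESeq2), by edgeR's quasi-likelihood test at an adjusted p under 0.05 (Benjamini-Hochberg, over the 17300 genes tested). The background was high: 12.3% of all tested genes rose and 9.66% fell under this rule. The genes that rose were Rpgrip1l, Nphp4, Ahi1, Cep290 and Cc2d2a, with changes from 1.197-fold to 1.65-fold. Iqcb1, Invs and Anks6 did not pass. In DESeq2, which called 10.1% of its tested genes higher, 4 of the 8 rose and Cc2d2a did not pass. For 5 of the 8, both Foxn3KO libraries were above both wild-type libraries, as they were for 29.9% of all tested genes. The median log2 fold change of the 8 genes was 0.32, beside -0.0047 for all tested genes. In bulk RNA, a change in the number of cells that express a gene and a change in its RNA per cell cannot be told apart.

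**Figure D1:**
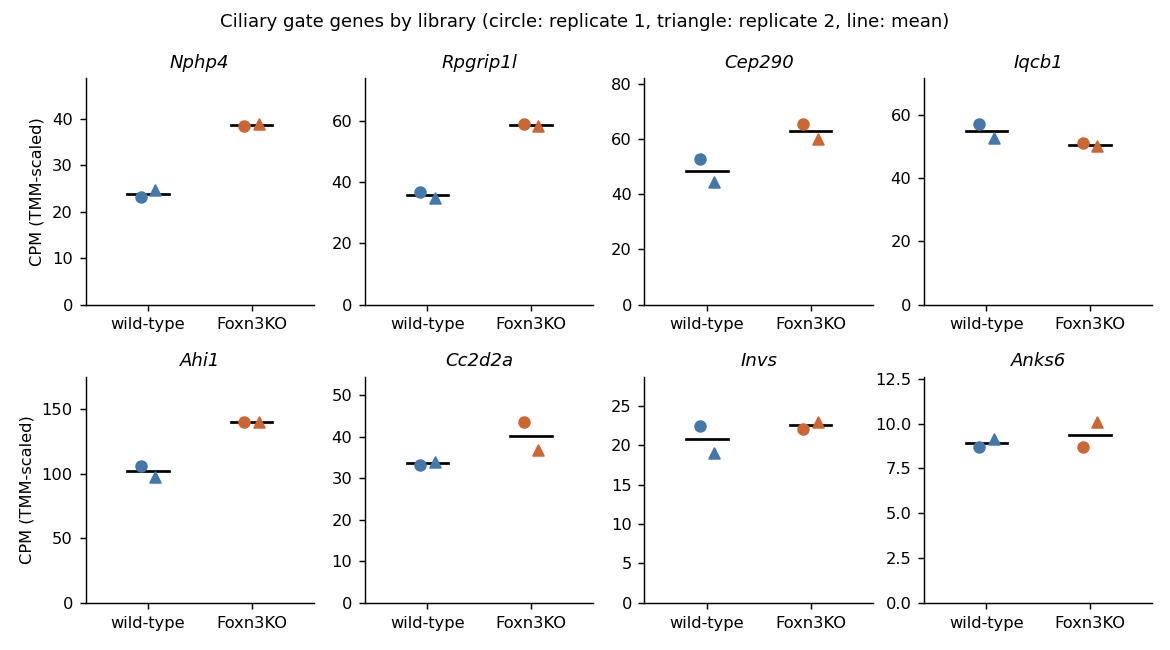
Level of each of the 8 genes (y axis, TMM-scaled CPM, from 0) in the 2 wild-type and 2 Foxn3KO libraries; circles are replicate 1, triangles replicate 2 and lines the group mean. Both Foxn3KO libraries lie above both wild-type libraries for Nphp4, Rpgrip1l, Cep290, Ahi1 and Cc2d2a, and the groups overlap for Invs and Anks6.

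The NPHP module is a scaffold of the gate in which Rpgrip1l and Nphp4 bind each other. Rpgrip1l (ENSMUSG00000033282) had 36.6 and 34.7 CPM in the wild-type libraries and 59.0 and 58.3 CPM in the Foxn3KO libraries. Its groups were far apart compared with the spread within either. The group means were 35.6 ± 1.35 and 58.6 ± 0.539 CPM (SD, n = 2 each), and the log2 fold change was 0.72 (SE 0.06, edgeR adjusted p = 5.86e-08), the largest of the 8. Nphp4 (ENSMUSG00000039577) had 23.2 and 24.7 CPM in wild-type and 38.4 and 39.0 CPM in Foxn3KO, again without overlap. Its means were 23.9 ± 1.04 and 38.7 ± 0.422 CPM (SD, n = 2 each), with a log2 fold change of 0.69 (SE 0.07, edgeR adjusted p = 6.86e-07). Both genes of the module described here thus rose, by nearly the same amount, 0.69 and 0.72 on the log2 scale.

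The start regions of the genes that rose were read for motifs of factors that act on cilia genes. RFX factors activate cilia genes through the X-box, 2 half-sites close to GTTGCC and its reverse complement. Rfx1, Rfx2 and Rfx3 had log2 fold changes of 0.46, 1.41 and 0.40 here (edgeR adjusted p = 6.15e-05, 1.18e-10 and 1.35e-05) and rose, as did Foxj1, the forkhead regulator of motile cilia, at 4.45 (edgeR adjusted p = 1.60e-18). RefSeq promoter windows of build GRCm38.p6, from 250 bases before to 50 bases after an annotated start, were held for 7 of the 8 genes (10 windows), all but Anks6. The deposited counts are on build mm39. Neither the window of Rpgrip1l, the gene with the largest rise, nor that of Cc2d2a holds any of the motifs searched. The windows of Ahi1 and Nphp4 that hold an X-box form are shown with the match in capitals, together with that of Rpgrip1l. They lie at chr10:20952297-20952596 (plus strand), chr4:152477892-152478191 (plus strand, the third of 3 Nphp4 windows) and chr8:91313173-91313472 (minus strand), and each is written 5′ to 3′ on the strand of its gene.
Ahi1: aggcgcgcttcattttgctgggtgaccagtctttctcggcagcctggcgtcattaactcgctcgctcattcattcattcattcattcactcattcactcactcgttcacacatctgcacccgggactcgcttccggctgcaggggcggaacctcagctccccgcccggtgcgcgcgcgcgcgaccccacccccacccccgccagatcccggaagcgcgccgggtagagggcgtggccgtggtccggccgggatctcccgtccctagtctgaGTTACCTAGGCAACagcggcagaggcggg
Nphp4: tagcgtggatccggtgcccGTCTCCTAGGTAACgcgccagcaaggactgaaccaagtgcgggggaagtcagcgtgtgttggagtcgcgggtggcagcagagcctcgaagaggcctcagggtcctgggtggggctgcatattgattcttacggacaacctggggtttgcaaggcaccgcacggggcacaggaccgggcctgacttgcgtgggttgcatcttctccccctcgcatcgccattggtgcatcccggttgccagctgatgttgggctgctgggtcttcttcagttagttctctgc
Rpgrip1l: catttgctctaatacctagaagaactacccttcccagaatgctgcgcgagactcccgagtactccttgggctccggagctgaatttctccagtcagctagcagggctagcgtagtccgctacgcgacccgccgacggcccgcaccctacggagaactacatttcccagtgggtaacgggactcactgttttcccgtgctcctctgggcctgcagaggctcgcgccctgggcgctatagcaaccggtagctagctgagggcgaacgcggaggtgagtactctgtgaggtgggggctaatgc

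The Ahi1 match, GTTACCTAGGCAAC, began at base 22 after the start. Read on the other strand it is GTTGCC, then any 2 bases, GG, any base and AAC, a form that 0.298% of all 32851 windows hold on either strand. With any base in place of the second G, 0.451% hold it. The Nphp4 match, GTCTCCTAGGTAAC, began 231 bases before the start and fits only a looser form, with any base also in place of the second T. That form, which the Ahi1 match fits too, was added after the windows had been read, and 1.29% of all windows hold it. Each motif was searched on both strands, so the longer forms can include the half-site. The half-site GTTGCC stood in windows of Ahi1 and Nphp4 and in 12.5% of all windows. Among the forkhead motifs, GTAAACA was in no window of the 7 genes and in 3.65% of all. GACGC, bound by FOXN-type forkhead factors, was in windows of Ahi1, Cep290, Iqcb1 and Nphp4 and in 27.2% of all. CCAAT, the NF-Y motif, was in windows of Ahi1, Cep290, Invs, Iqcb1 and Nphp4 and in 37.4% of all. Counted by gene instead of by window, the shares were 14.1% for GTTGCC, 4.05% for GTAAACA, 29.6% for GACGC and 41.1% for CCAAT. A gene with several windows has more room for a match. These matches describe letters in a window, not binding.

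Cep290 and Iqcb1 encode a pair of proteins that bind each other at the gate, and loss of either causes Leber congenital amaurosis or Senior-Løken syndrome, in which the retina fails early. Cep290 (ENSMUSG00000019971), a part of the Y-shaped links between axoneme and membrane, had 52.8 and 44.4 CPM in wild-type and 65.7 and 60.1 CPM in Foxn3KO. The groups did not overlap, but both spreads were wider than for the NPHP module. Means were 48.6 ± 5.96 and 62.9 ± 3.95 CPM (SD, n = 2 each), and the log2 fold change was 0.37 (SE 0.07, edgeR adjusted p = 0.0012). Iqcb1 (ENSMUSG00000022837), a calmodulin-binding protein, had 57.3 and 52.8 CPM in wild-type and 51.2 and 50.2 CPM in Foxn3KO. Its log2 fold change of -0.12 (SE 0.06) did not pass (edgeR adjusted p = 0.175), although both Foxn3KO libraries were the lower ones. Without wild-type replicate 2 it was -0.18 and passed (edgeR adjusted p = 0.021), with the single wild-type library assumed to vary like the Foxn3KO group.

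Within each library, the ratio of Cep290 reads to Iqcb1 reads needs no scaling between libraries. It was 0.921 and 0.841 in wild-type and 1.28 and 1.196 in Foxn3KO, without overlap. That was fixed by the values above, with Cep290 higher and Iqcb1 lower in both Foxn3KO libraries, so it adds no further evidence. The log2 fold changes of the pair differed by 0.49 (SE 0.0945, 95% interval 0.31 to 0.68). This SE treats the fold changes of the pair as independent, although both come from the same libraries. With 2 libraries against 2, an exact two-sided permutation test cannot go below 0.333, which is the value this ratio gave.

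Ahi1 and Cc2d2a are Joubert syndrome genes outside the tectonic transmembrane proteins. Ahi1 (ENSMUSG00000019986) encodes jouberin, a WD-repeat protein needed for the photoreceptor outer segment. It had 106 and 97.8 CPM in wild-type and 140.0 and 139.7 CPM in Foxn3KO, with no overlap and almost no spread between the Foxn3KO libraries. The log2 fold change was 0.46 (SE 0.05, edgeR adjusted p = 2.26e-06), on means of 102 ± 5.95 and 139.9 ± 0.226 CPM (SD, n = 2 each). Cc2d2a (ENSMUSG00000039765), a coiled-coil and C2 domain protein that links the gate to vesicle docking, had 33.3 and 33.9 CPM in wild-type and 43.5 and 36.7 CPM in Foxn3KO. The 2 Foxn3KO libraries stood further apart than the lower of them stood from wild-type. Cc2d2a did not pass in DESeq2 (adjusted p = 0.0722). The authors' deposited values, also from DESeq2, gave the same adjusted p and are not a separate test. The log2 fold change of Cc2d2a, 0.26 (SE 0.08), passed in edgeR (adjusted p = 0.0206). Without Foxn3KO replicate 1 it was 0.13 and did not pass (edgeR adjusted p = 0.464), so the call rests on that library.

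**Figure D2:**
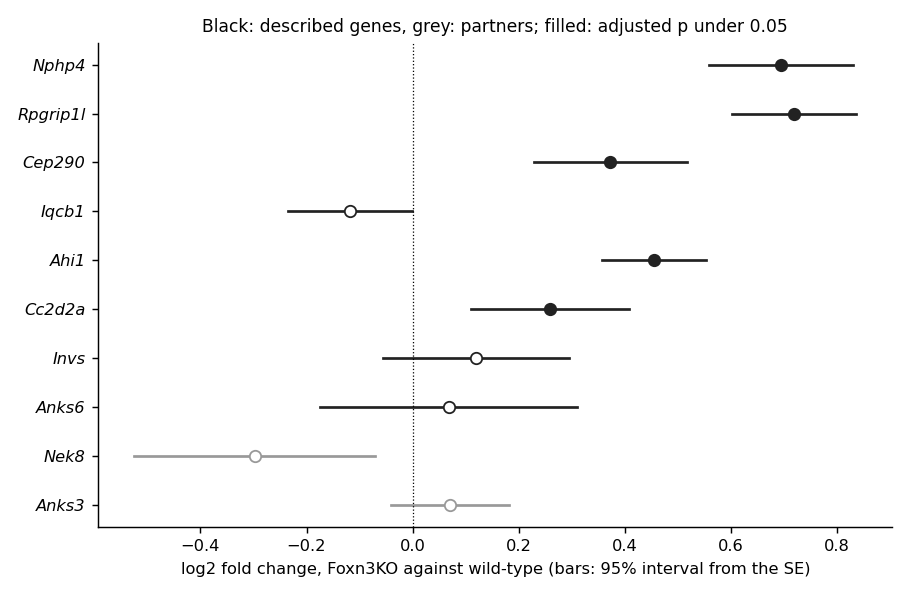
Log2 fold change of the 8 genes (black) and of 2 partners of the inversin compartment (grey), positive where higher in Foxn3KO. Bars are 95% intervals from the SE and the normal distribution, narrower than the F test allows. Filled points passed the edgeR threshold. Rpgrip1l and Nphp4 lie furthest to the right, at 0.72 and 0.69, and no gene from Invs downwards passed.

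The inversin compartment holds Invs, which recruits the others, the ankyrin-repeat protein Anks6 and the kinase Nek8 that Anks6 activates. Invs (ENSMUSG00000028344) had 22.5 and 18.99 CPM in wild-type and 22.1 and 22.9 CPM in Foxn3KO, and the groups overlapped. Its log2 fold change was 0.12 (SE 0.09, 95% interval -0.06 to 0.29, edgeR adjusted p = 0.383). Its wild-type libraries differed enough to decide the value, which was 0.25 when wild-type replicate 1 was left out (edgeR adjusted p = 0.049) and -0.000803 without wild-type replicate 2. Anks6 (ENSMUSG00000066191), the lowest of the 8, had 8.67 and 9.16 CPM in wild-type and 8.69 and 10.1 CPM in Foxn3KO, also with overlap. Its log2 fold change was 0.07 (SE 0.12, 95% interval -0.17 to 0.31, edgeR adjusted p = 0.748), and it changed sign to -0.04 without Foxn3KO replicate 2.

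Their partners were read from the same fit. Nek8 had 12.9 and 10.9 CPM in wild-type and 9.65 and 9.69 CPM in Foxn3KO, a log2 fold change of -0.30 (SE 0.12, edgeR adjusted p = 0.0777). Nek8 passed without wild-type replicate 2 (-0.41, edgeR adjusted p = 0.0112). Anks3, which binds Anks6, had a log2 fold change of 0.07 (SE 0.06, edgeR adjusted p = 0.420). Of these 4 genes, Invs, Anks6, Nek8 and Anks3, none passed in edgeR, 1 (Nek8) had an unadjusted p under 0.05, and none passed in DESeq2 or limma-voom. Their log2 fold changes ran from -0.30 to 0.12.

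Read against Invs in the same library, the NPHP module genes moved. The ratio of Rpgrip1l reads to Invs reads was 1.62 and 1.83 in wild-type and 2.67 and 2.54 in Foxn3KO. That of Nphp4 to Invs was 1.03 and 1.30 in wild-type and 1.74 and 1.70 in Foxn3KO. Neither ratio overlapped between the groups, and the log2 fold changes differed by 0.60 (SE 0.11) for Rpgrip1l and 0.57 (SE 0.11) for Nphp4. By contrast the ratio of Invs to Anks6 overlapped (2.60 and 2.07 against 2.55 and 2.27), and its difference of 0.05 had a 95% interval of -0.25 to 0.35. These pairs, like that of Cep290 and Iqcb1, were chosen with the values known. Each SE and interval combines the standard errors of the fit as if the genes were independent.

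**Figure D3:**
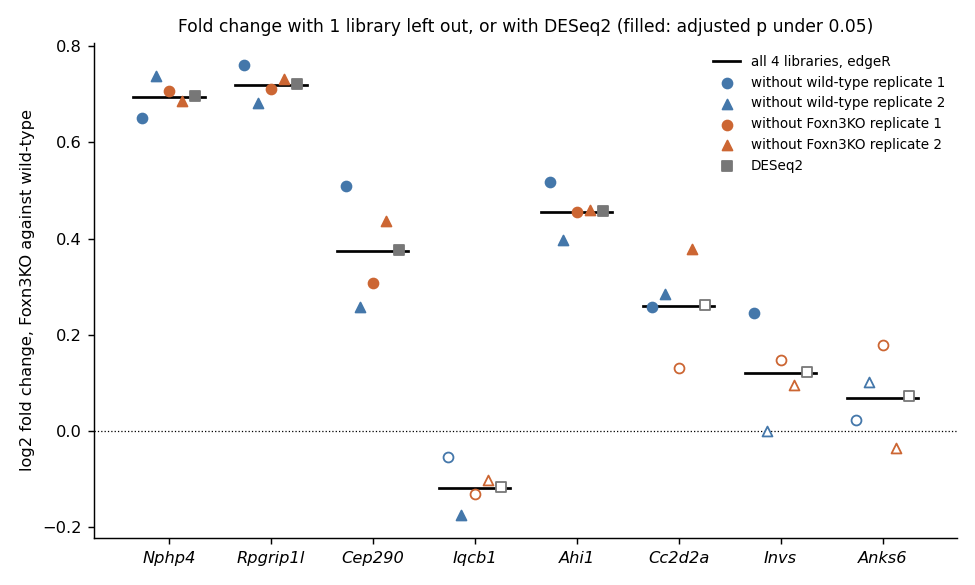
Log2 fold change of each of the 8 genes with all 4 libraries (black line), with 1 library left out (blue for wild-type, orange for Foxn3KO) and with DESeq2 (grey square); filled symbols have an adjusted p under 0.05. Nphp4, Rpgrip1l, Cep290 and Ahi1 stay above 0 and filled throughout, from 0.26 for Cep290 without wild-type replicate 2 to 0.76 for Rpgrip1l without wild-type replicate 1, whereas Cc2d2a, Iqcb1 and Invs change side of the threshold.

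Levels of different genes were compared on the authors' FPKM values, which correct for gene length. In wild-type the order from highest to lowest was Ahi1 (13.8 to 15.0 FPKM over the 2 libraries), Iqcb1 (9.77 to 10.6), Cc2d2a (4.86 to 4.96), Cep290 (3.81 to 4.53), Nphp4 (3.82 to 4.07), Rpgrip1l (2.35 to 2.48), Invs (1.66 to 1.96) and Anks6 (1.61 to 1.71 FPKM). Cep290 and Nphp4 overlapped, as did Invs and Anks6, and the other neighbours in this order did not. The median of all tested genes was 5.19 FPKM, so only Ahi1 and Iqcb1 of the 8 were above it in wild-type.

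In Foxn3KO, Nphp4 moved from the fifth to the third place at 6.34 to 6.44 FPKM, level with Cc2d2a (5.38 to 6.38), whose range it overlapped. Cc2d2a also overlapped with Cep290 (5.16 to 5.64 FPKM). Ahi1 stayed the highest (19.8 FPKM in both libraries), Iqcb1 followed (9.30 to 9.47), and Rpgrip1l (3.96 to 4.01), Invs (1.93 to 2.00) and Anks6 (1.62 to 1.88) kept the last places without overlapping.

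**Figure D4:**
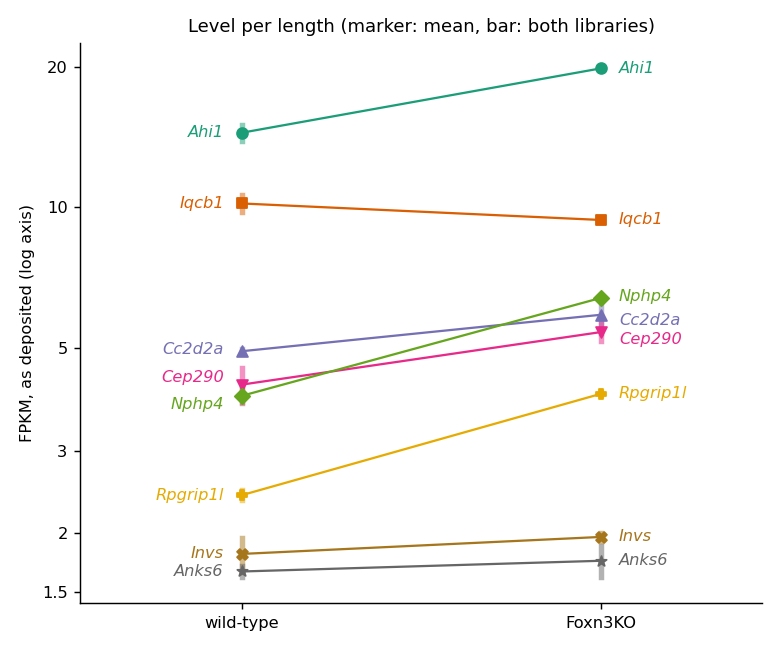
FPKM of the 8 genes on a log axis in wild-type and Foxn3KO; markers are group means and thick bars span both libraries. Ahi1 and Iqcb1 lie apart at the top, Invs and Anks6 at the bottom, and Nphp4 crosses Cep290 and Cc2d2a between the groups.

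Other genes of the gate were taken from lists of known disease and complex members. Their edgeR counts stand beside 12.3% of all tested genes higher and 9.66% lower. With a library left out, the number called over all genes changed too, so list counts from those fits have another background. The tectonic and Meckel complex, the membrane-bound part of the gate in which Cc2d2a sits, had 13 of 14 genes higher and none lower, with a median log2 fold change of 0.85. The 3 with the smallest p were Tctn2, Tmem107 and Tctn3, with log2 fold changes of 1.34, 1.16 and 1.12. Every one of the 8 genes described here had a fold change below that median. Of 13 other nephronophthisis genes 8 were higher and 1 (Glis2) lower, with a median of 0.33; without wild-type replicate 2, 2 were lower (Glis2 and Slc41a1). Wdr19 (1.07) and Traf3ip1 (0.74), subunits of intraflagellar transport, and Dcdc2a (1.22), a doublecortin-domain microtubule protein, had the smallest p of that list (log2 fold changes in parentheses, here and for the next lists). Of 19 other Joubert genes 8 were higher and 1 (Hyls1) lower, with a median of 0.07. Without wild-type replicate 1, 8 were higher and 3 lower (Hyls1, Kif7 and 2700049A03Rik). Armc9 (1.13), Katnip (0.74) and Cep41 (0.82) had the smallest p of the list. Of 9 partners at the connecting cilium and centriolar satellites 6 were higher and 1 (Rpgrip1) lower, with a median of 0.23, and Rpgr (1.14), Cby1 (0.58) and Spata7 (0.47) had the smallest p. Without Foxn3KO replicate 2, 5 of these partners were higher and 0 lower. Rpgr is the X-linked retinitis pigmentosa gene whose product binds the Rpgrip1 family at the connecting cilium, and its counts were 1559 and 1736 in wild-type and 4106 and 3092 in Foxn3KO.

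**Figure D5:**
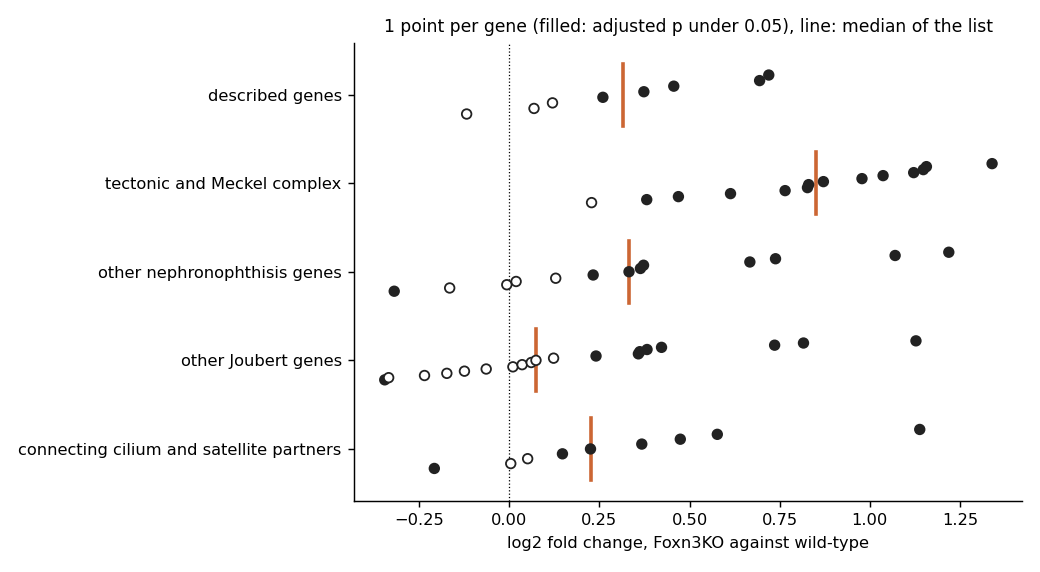
Log2 fold change of every tested gene in the 8 described and in 4 lists of gate genes, 1 point per gene, filled where the edgeR adjusted p is under 0.05, with the list median as an orange line. The tectonic and Meckel complex lies furthest to the right (median 0.85), and each list holds both filled and open points.

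The genes with the pattern most like the 8 were sought over the 4 libraries among 12100 genes (mean CPM of 5 or more, a count in each library), by Euclidean distance of centred log2 CPM. Nearest to the average of the 8 were Pttg1, Baiap2, Fzd1, Mfn1 and Eif2ak2, at distances of 0.0111 to 0.0236. Nearest to Rpgrip1l alone were Lztfl1 (0.0485), Gpr179 (0.0499) and Ift74 (0.0521). Lztfl1 encodes a regulator of the BBSome and Ift74 a core subunit of intraflagellar transport. Lztfl1 had 62.2 and 58.3 CPM in wild-type and 98.0 and 94.7 CPM in Foxn3KO, beside 36.6 and 34.7 against 59.0 and 58.3 CPM for Rpgrip1l.

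Markers of the retina were present in all libraries: progenitor, ganglion cell, amacrine and horizontal cell, and photoreceptor precursor markers were all tested and none was at 0. Some of them moved with genotype, beside 12.3% of all tested genes higher and 9.66% lower in edgeR. These shares hold for all 4 libraries and changed when a library was left out. Of 10 progenitor markers 3 were higher (Six3, Six6 and Sox2) and 2 lower (Hes1 and Fgf15), with log2 fold changes of -0.21 to 0.18 over the list. Without wild-type replicate 1, 4 progenitor markers were higher and 4 lower, and without Foxn3KO replicate 1, 0 were higher and 1 lower. Of 8 amacrine and horizontal cell markers 4 were lower, Onecut1 (-0.51), Gad1 (-0.27), Onecut2 (-0.18) and Prox1 (-0.16); DESeq2 called 1 (Gad1), and 0 passed without Foxn3KO replicate 1. Of 8 ganglion cell markers 1 (Isl1) was lower. Photoreceptor precursor markers, whose cells later build the connecting cilium, summed to 1177 and 1170 CPM in wild-type and 1206 and 1212 CPM in Foxn3KO, with 5 of 10 higher. Lists of other cells and of cilia moved with genotype as well. Motile axoneme genes were all higher (20 of 20 tested, 1 of them, Cfap43, at 0 in wild-type replicate 2), and summed to 144 and 135 CPM against 986 and 979 CPM. Lens markers were higher for 9 of 10 in edgeR and for 3 in DESeq2, and summed to 5.80 and 74.1 CPM in wild-type and 296 and 296 CPM in Foxn3KO, so that the wild-type libraries differed from each other too; Crygs was at 0 in wild-type replicate 1. Retinal pigment epithelium markers were lower for 4 of 9, at 91.1 and 120 CPM against 75.2 and 76.3 CPM; leaving out wild-type replicate 1 gave 6 lower, and leaving out wild-type replicate 2 gave 2. Vessel and mesenchyme markers were higher for 3 of 9, Tek (log2 fold change 1.75), Pecam1 (1.07) and Rgs5 (0.71), with a list median of 0.50 and 0 called in DESeq2. They summed to 381 and 401 CPM against 383 and 378 CPM, of which Kdr alone gave 359 and 373 CPM in wild-type; without Kdr the sums were 22.4 and 28.1 CPM against 29.6 and 31.0 CPM. Of 8 microglia and blood markers 0 passed in edgeR and 0 in DESeq2, with 1 at an unadjusted p under 0.05; without wild-type replicate 1, 2 were lower, and without wild-type replicate 2, 3 were higher. Choroid plexus markers summed to 13.8 and 16.8 CPM against 17.9 and 17.7 CPM, with 2 of 5 higher and 1 lower. Regulators of multiciliated cells were higher for 2 of 4, Foxj1 and Ccno, and of the airway and nasal markers only Cfap126, itself a cilia gene, was read here, at 0.363 and 0.405 CPM against 15.8 and 16.6 CPM. The part of these cells in the rise of the gate genes was not tested.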

How the data were processed

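RNA sequencing of retinas from single embryos gave 1 table with a count column per library. The raw counts per gene were deposited by the authors without normalization. The FPKM values, the mean signal over size factors, the log2 fold changes (shrunken) and the p-values and adjusted p-values in the table are those of the authors, as deposited. The genome build mm39 and DESeq2 are named in the submitters' processing notes; the aligner, the annotation, and the use of strand and molecular identifiers in counting are not given in the sources used here. Without strand, reads of overlapping genes cannot be told apart.

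From the counts, 18471 genes were read after 1 repeated identifier was dropped; 17300 passed filterByExpr and were scaled with TMM and tested with edgeR 4.0.16 (R 4.3.3, edgeR 4 quasi-likelihood fit, genotype as the only term, two-sided, Benjamini-Hochberg). The standard error is the fold change over the root of F. The procedure was tested on simulated data. Alternatives were RLE and total count scaling, no filter, the earlier edgeR fit, DESeq2 1.42.0, limma-voom (limma 3.58.1), a replicate term, and fits without each library in turn. A symbol with several identifiers was read from the one with the larger mean. Figures were drawn with matplotlib 3.10.9.

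The 8 genes, the lists and the tests were chosen with earlier results of these data known. Named were the 8 genes, Foxn3, Foxj1, RFX genes, Xist, Ddx3y, Nek8 and Anks3, and the 3 called genes with the smallest p of each list; also the nearest genes by pattern. Cfap43, Crygs, Cfap126, single marker and lower list genes, and the overlapping genes were named after their values or positions were seen. Rfx4 was not analysed here, and some genes that the rule names are not reported here. The deposited counts fall to sums of 16 over the 4 libraries, and genes below that were not used here. The limit of 3 counts is 0.102 to 0.133 CPM per library, for counting error only.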

Additional observations from a re-analysis of the deposited data

How the results depend on the processing

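Of 56 values for the 8 genes under 7 settings with all 4 libraries, 55 kept their direction and side of the threshold; the other was Cc2d2a in DESeq2. The number of the 8 genes that passed was 4 in DESeq2 and 5 in the other 6 settings, and 4 to 6 with a library left out. The count over all genes was 2437 with DESeq2 against 3795, for a cause that was not tested, and 2323 to 5067 with a library left out. It was 2328 without Foxn3KO replicate 1 and 2323 without Foxn3KO replicate 2, fits in which the spread rests on the wild-type pair. With a library left out, the log2 fold change ranged from -0.000803 to 0.245 for Invs, from -0.0354 to 0.179 for Anks6 and from -0.0265 to 13.98 for Ddx3y. Reversed values were -0.000803 for Invs without wild-type replicate 2, -0.0354 for Anks6 without Foxn3KO replicate 2 and -0.0265 for Ddx3y without wild-type replicate 1, which had 0 Ddx3y counts.

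Whether shared replicate numbers pair the libraries could not be settled. Over genes, the replicate differences of the wild-type and Foxn3KO groups had a correlation of 0.00526. With 2 libraries per group, and sex-linked transcripts that differ within wild-type, this value cannot exclude a pairing. With the replicate block 4222 genes passed, and the same 5 of the 8. Fits without a wild-type library assume that the lone sample varies like the Foxn3KO pair, whose mean chi-square per gene was 1.89 against 9.94 for the wild-type pair. The wild-type mean includes Xist, with 83073 counts in wild-type replicate 1 and 17 in wild-type replicate 2. It is raised by this transcript and does not give the spread of a typical gene. Other genes differed within wild-type too, such as the lens markers, which summed to 5.80 and 74.1 CPM. The 8 genes had at least 215 counts in every library. Counting error alone gives a standard error of 0.09 for Anks6 (215 to 253 counts), of the 0.12 in the fit, so that depth limits Anks6 most; for Ahi1, with 2634 to 4079 counts, it gives 0.03 of 0.05.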

Other observations

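In the GENCODE M21 annotation, 3 of the 8 genes start within 500 bases of a gene on the opposite strand. Fto, next to Rpgrip1l, rose by 0.20 on the log2 scale (SE 0.05, edgeR adjusted p = 0.0124), beside 0.72 for Rpgrip1l. Fto had 158 and 181 CPM in wild-type and 194 and 195 CPM in Foxn3KO. Tmtc3, next to Cep290, had a log2 fold change of -0.07 (edgeR adjusted p = 0.538), and Erp44, next to Invs, 0.13 (edgeR adjusted p = 0.106). Exons overlapped for 2 of the 8: 7.58% of the exon bases of Cep290 are shared with 4930430F08Rik and 1.98% of those of Invs with Tex10, both on the opposite strand. These neighbours had log2 fold changes of -0.24 (edgeR adjusted p = 0.0713) and -0.15 (edgeR adjusted p = 0.058), and neither passed. The part of reads from shared exons in the values of Cep290 and Invs was not tested. Eaf2 spans Iqcb1 on the opposite strand with no shared exon base and had 23 to 30 counts per library, against 1125 to 1490 for Iqcb1.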
